A study of Mus musculus with 3 samples.

Results

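The broadest stretches of open chromatin over mouse gene starts were examined in embryonic liver. They were chosen by their width in DNase-seq, an assay in which the enzyme DNase I cuts DNA that is not packed away and the cut sites are sequenced. In each of 3 biological replicates the shorter of the deposited peak lists was taken, and peaks that shared at least 1 bp were merged over the replicates. A region was kept where it held a peak in all 3 replicates, lay within 1 kb of a GENCODE transcript start and was 700 bp or wider after the merge. Of 61155 merged regions, 24196 had a peak in all 3 replicates, 15386 of these lay at a start, and 810 of these were wide, or 5.26%. The remaining 14576 are called the other common promoter regions.

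All libraries came from 1 group, liver of 13.5-day mouse embryos of strain C57BL/6N,129, labelled with an HS2 HS3 deletion and a HOM globin mutation. Whether embryos were pooled is not stated in the labels. HS2 and HS3 are known as enhancers of the β-globin locus control region. With 1 group there is no comparison of genotypes, and the error given is the spread over the 3 replicates. The shorter lists held 28209, 57314 and 41319 peaks in replicates 1, 2 and 3, with 126616, 194898 and 179791 footprints. The steps between the lowest signal values imply relative depths of 79.4, 120 and 133 in replicates 1, 2 and 3, if 1 step stands for 1 cut. The depth itself is unknown. Liver at this age is a blood-forming organ: 23 of 24 erythroid membrane and effector genes and 19 of 20 erythroid transcription factors had a common promoter region, against 5 of 20 hepatoblast markers and 0 of 11 endothelial, 0 of 10 macrophage and 0 of 10 neutrophil markers. Of the remaining marker lists it was 3 of 10 for megakaryocytes, 4 of 10 for lymphoid cells, 6 of 12 for blood stem cells, 3 of 10 for mesenchymal cells and 5 of 8 for neurons. Over all protein-coding genes it was 11356 of 21924 (51.8%), so that the blood stem cell and neuron lists lie near that share.

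A promoter is open because nucleosomes are moved off the DNA around the start, where transcription factors and RNA polymerase assemble. The usual open stretch at an active start is about as long as the gap between the nucleosomes that flank it, and in vertebrates most such starts lie in CpG islands, DNA rich in CG dinucleotides. A footprint is a short run of bases inside open chromatin that is cut less than its surroundings, as happens where a protein covers the DNA. Wider openings are known at genes with several starts, at starts with an enhancer close by and over long CpG islands.

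The sequences below show what DNA under the wide regions looks like at the places where footprints of the 3 replicates coincided. They are 300-base windows of GRCm38 (mm10), 5′ to 3′ on the strand of the leading gene, and capitals mark bases under a footprint in all 3 replicates. Abtb1 had the most such bases of the wide regions, Anp32a was the widest and Oxsr1 had the most footprints per 100 bp.
Abtb1, chr6:88842008-88842307, minus strand: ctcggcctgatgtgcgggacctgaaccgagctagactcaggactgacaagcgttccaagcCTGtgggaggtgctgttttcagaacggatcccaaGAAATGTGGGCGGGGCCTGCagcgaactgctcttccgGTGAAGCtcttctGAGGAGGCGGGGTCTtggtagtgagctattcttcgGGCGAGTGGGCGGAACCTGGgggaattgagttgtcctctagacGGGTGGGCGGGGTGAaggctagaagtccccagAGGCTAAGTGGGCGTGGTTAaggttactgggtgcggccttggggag
Anp32a, chr9:62343170-62343469, plus strand: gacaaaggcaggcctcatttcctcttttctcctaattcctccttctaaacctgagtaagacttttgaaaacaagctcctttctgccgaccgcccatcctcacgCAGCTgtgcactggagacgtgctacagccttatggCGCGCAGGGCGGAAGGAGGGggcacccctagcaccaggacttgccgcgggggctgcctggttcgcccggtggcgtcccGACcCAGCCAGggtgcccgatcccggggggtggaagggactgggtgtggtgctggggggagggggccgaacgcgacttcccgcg
Oxsr1, chr9:119322609-119322908, minus strand: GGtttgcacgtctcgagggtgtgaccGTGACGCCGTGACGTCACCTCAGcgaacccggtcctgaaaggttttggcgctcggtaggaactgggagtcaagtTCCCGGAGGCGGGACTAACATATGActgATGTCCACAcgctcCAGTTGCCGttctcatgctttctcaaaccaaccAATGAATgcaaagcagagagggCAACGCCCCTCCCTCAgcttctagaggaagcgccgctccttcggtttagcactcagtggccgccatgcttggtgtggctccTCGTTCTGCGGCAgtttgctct
None of the 3 windows overlapped an annotated exon. The Abtb1 and Oxsr1 windows lay upstream of the leading start, the Oxsr1 window within an intron of an annotated coding gene. The Anp32a window began 706 bp downstream of its leading start, also in an intron. The Abtb1 window held 100 capital bases in 7 runs, and GGGCGG, the GC box read by Sp and KLF factors, touched capitals at 3 places on either strand. The Oxsr1 window had 104 capital bases in 8 runs, touched by 1 copy of TGACGTCA, the CREB and ATF element, and 1 of CCAAT, the box read by NF-Y. The Anp32a window had 35 in 4 runs.

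Wide regions lay mostly at protein-coding genes. Of the 810, 788 were led by a protein-coding gene, and together they reached the starts of 860 of 21924 protein-coding genes, or 3.92%. Among the 11356 coding genes with any common promoter region, those 860 were 7.57%. Coding starts on both strands were near 86 of the 810 wide regions (10.6%) and near 1549 of the 14576 other common promoter regions (10.6%). The median number of distinct starts within 1 kb was 3 in both sets, but they spanned a median of 410 bp at wide and 165 bp at the other common promoter regions, and a single distinct start was found at 16.3% and 21.2%. A start lay inside the region in all but 24.3% of the wide and 27.8% of the other common promoter regions.

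The median width was 824 bp in the wide regions and 300 bp in the other common promoter regions, a difference that the rule itself made. Of the wide regions 184 reached 1000 bp and 18 reached 1500 bp, and the widest had 2720 bp. Just inside the limit, at 700 bp, were regions at Arid5a, a DNA-binding factor, Cul3, the scaffold of a ubiquitin ligase, and Hdlbp, an RNA-binding protein. Just outside it were Tgfa with 699 bp, and Tet1 and Btn1a1 with 698 bp each.

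More of the wide than of the other common promoter regions were centred downstream of the start. Orientation could be read where all starts near the region belonged to 1 strand and 1 coding gene, which held for 544 wide and 10175 other common promoter regions. From the median start of the gene the wide regions reached a median of 667 bp downstream and 208 bp upstream, and the other common promoter regions 88.0 bp downstream and 183 bp upstream. A wider region has to reach farther on at least 1 side, and the upstream side depended on the start used: from the start farthest upstream, an alternative chosen after seeing the data, the upstream medians were 16.5 bp in the wide and 133 bp in the other common promoter regions. The middle of the region was downstream of the start in 71.3% of the wide and 34.9% of the other common promoter regions, and the whole region was downstream in 34.7% and 20.5%. Of all bases in wide regions 39.1% were in introns and 18.3% outside coding genes, against 26.3% and 34.5% in the other common promoter regions.

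**Figure D1:**
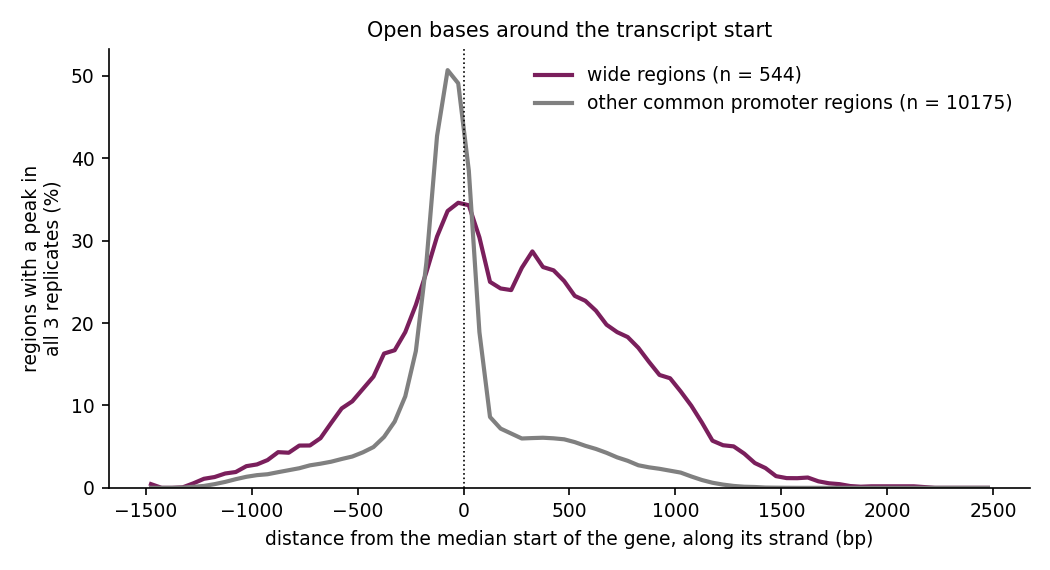
Share of regions in which a base had a peak in all 3 replicates, in 50-bp bins by distance from the median start of the gene along its strand, for 544 wide regions and 10175 other common promoter regions. The other common promoter regions form 1 narrow peak just upstream of the start, at 49.1% in the bin before it and 5.99% in the bin from 250 bp on; the wide regions have a lower top of 34.6% in the bin before the start and a shoulder of 26.7% in the bin from 250 bp on.

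The reach was not the same at strong and weak wide regions. The signal of a peak is the value the authors gave it, whose definition is not given in the sources used here. In each replicate the low values are whole multiples of 1 step, as counts of cuts scaled by depth would be. The signal of a region is that of its strongest peak in the replicate. Among wide regions with a mean signal from 1 to 2 the median reach was 864 bp downstream and 64.5 bp upstream, over 238 regions with an orientation. Among those with a mean signal of 8 or more it was 56.8 bp downstream and 734 bp upstream, although only 12 had an orientation. In the other common promoter regions the same classes reached 249 and 47.0 bp downstream and 130 and 228 bp upstream. Wide regions with a mean signal under 1 reached 694 bp downstream and 186 bp upstream. Those from 2 to 4 reached 594 bp downstream and 263 bp upstream. Those from 4 to 8 reached 357 bp downstream and 424 bp upstream, over 40 with an orientation. So the wide classes under 4 reached mostly downstream of the median start, and those of 4 or more reached farther upstream of it. Upstream of that start is not always outside a gene. Of the Oxsr1 region 613 of 700 bp were intronic, while of the Tbl2 region 696 of 760 bp lay outside coding genes.

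Many wide regions had a stronger neighbour. Another region common to all 3 replicates lay within 1 kb of 506 of the 810 wide regions (62.5%) and of 6306 of the 14576 other common promoter regions (43.3%). That neighbour had the higher mean signal beside 354 of the 506 wide regions (70.0%), against 3105 of 6306 (49.2%) beside the others, and it was upstream on the strand of the leading gene in 66.2% and 51.1%. Across these pairs the median gap was 200 bp for wide regions and 240 bp for the others, and the median signal of the neighbour was 3.25 and 3.13. Hence the wide member of a pair was more often the weaker one. Where other common promoter regions were each other's nearest, both were counted, which draws the 49.2% toward an even split. Wide regions with a neighbour had a median signal of 1.73, while the other common promoter regions with a neighbour had 3.31. Of 189 wide regions wholly downstream of the start, 175 had a neighbour and for 144 (76.2%) it was stronger and upstream, compared with 1169 of 2084 (56.1%) of the other common promoter regions so placed. At 528 of the 788 wide regions with a leading coding gene that gene had more than 1 common promoter region, and the wide one was its strongest in 118 (22.3%); the share was 3203 of 7172 (44.7%) for the other common promoter regions.

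Signal was lower in the wide regions in each replicate. The medians over the 810 wide regions were 2.00, 1.70 and 1.78 in replicates 1, 2 and 3, a mean of 1.82 ± 0.155 (SD, n = 3). The medians over the other common promoter regions were 3.62, 4.35 and 3.58, a mean of 3.85 ± 0.435 (SD, n = 3). The 2 sets of replicate medians did not overlap, and the mean of the second set was 2.12 times that of the first. Signal was lower in each wider class above 200 bp, so that the wide regions stand at the low end of a gradient rather than apart from it. In replicate 1 the class medians were 4.52 at 200 bp to under 300 bp, 2.29 at 600 bp to under 700 bp and 1.88 at 1000 bp or more. Replicate 2 had the lowest signal of the 3 in 437 wide regions (54.0%) but in 21.3% of the other common promoter regions, and the highest in 31.1% and 65.0%. Across regions the signal kept its order between replicates, with Spearman correlations of 0.89 to 0.95 over 810 wide regions and 0.96 to 0.98 over 14576 others. These points share their libraries, so the correlations are descriptions.

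Only 113 wide regions (14.0%) had a mean signal of 4 or more, against 48.8% of the other common promoter regions. Tbl2, which encodes a WD-repeat protein, had signals of 11.9, 20.1 and 10.4 in replicates 1, 2 and 3. Abtb1, an ankyrin-repeat and BTB protein, had 10.4, 21.6 and 9.17. At Khsrp, a regulator of RNA splicing and decay, the values were 9.58, 20.9 and 9.26. Replicate 2 was the highest of the 3 in each, by a wide margin. The 10 strongest also held Ddx5, an RNA helicase, with 11.1, 15.5 and 11.7, and Sp1, the GC-box factor itself, with 7.70, 18 and 7.47. Zbtb5, Oxsr1 (a kinase of the WNK pathway), Csnk1g2 (a casein kinase), Usp5 (a deubiquitinase) and Cic (the repressor Capicua) filled the list with mean signals between 11.9 and 12.7. Replicate 2 was the highest at all 10. Their widths ran from 700 bp at Oxsr1 and Usp5 to 1020 bp at Sp1.

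At the other end were regions of low signal. The 5 lowest mean signals belonged to Klf8, a zinc-finger factor, Fgf13, a growth factor family member, Cask, a synaptic scaffold, Nrg1, a ligand of ErbB receptors, and Rnf217, a RING-finger ligase. The Klf8 region had 0.605, 0.418 and 0.437 in replicates 1, 2 and 3, and the Nrg1 region 0.756, 0.301 and 0.573. Replicate 1 was highest at all 5. Klf8, Fgf13 and Cask lie on the X chromosome, which held 3.70% of the wide and 2.87% of the other common promoter regions.

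Footprints were sparse in the wide regions for their length. They held a median of 6, 6 and 7 footprints in replicates 1, 2 and 3, against 4, 5 and 5 in the other common promoter regions, so the greater length brought few more. Per 100 bp this came to 0.700, 0.658 and 0.842, a mean of 0.733 ± 0.0965 (SD, n = 3), in the wide regions. The other common promoter regions had 1.5, 1.67 and 1.59, a mean of 1.59 ± 0.0834 (SD, n = 3), or 2.17 times as many, and the replicate values did not overlap. Footprints were also shorter, with a median of 8.67 ± 0.289 bp in wide and 11.2 ± 0.764 bp in the other common promoter regions (SD, n = 3). In 356 wide regions (44.0%) no base was under a footprint in all 3 replicates, against 21.9% of the others.

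**Figure D2:**
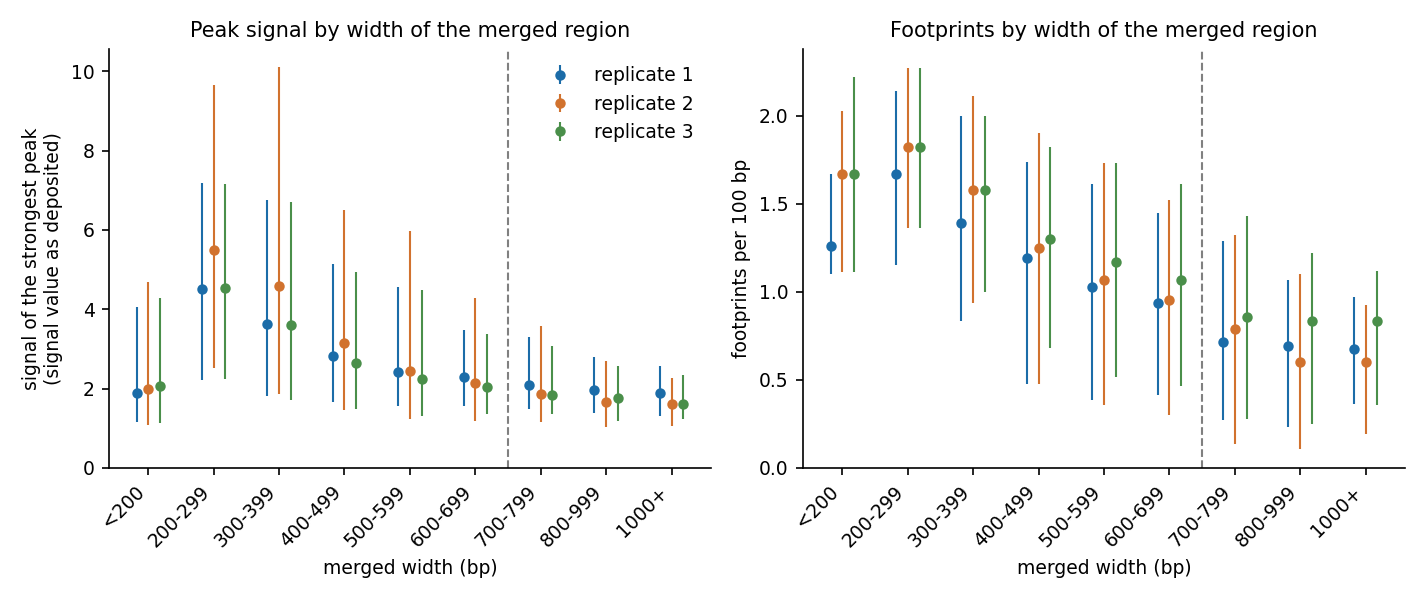
Median signal of the strongest peak (left) and median footprints per 100 bp (right) in each replicate, by width of the merged region in bp; bars span the quartiles over regions and the dashed line marks the 700-bp limit. Both are higher at 200 bp to under 300 bp than in the class under 200 bp. From there signal is lower in each wider class and footprints per 100 bp are lower in each wider class up to 800 bp, and at 1000 bp or more the medians are 1.61 to 1.88 for signal and 0.60 to 0.837 for footprints per 100 bp.

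Footprints are easier to call where cuts are dense, so the sets were also read at like signal. With a mean signal under 1, wide regions had 0.431 ± 0.117 footprints per 100 bp and the other common promoter regions 0.588 ± 0.130, which overlap within 1 SD. In that class too the wide regions were lower in each replicate. With a mean signal from 1 to 2, wide regions had 0.383 ± 0.0829 footprints per 100 bp and the other common promoter regions 0.843 ± 0.0788. From 4 to 8 the values were 1.49 ± 0.0392 and 1.89 ± 0.0646, and at 8 or more 1.75 ± 0.0696 and 2.08 ± 0.0142 (SD over replicates, n = 3 each). The wide regions had fewer in each class, but not once neighbours were matched at the lowest signal: under 1 and with a neighbour, wide regions had 0.118 ± 0.0217 and the others 0.0731 ± 0.127 (SD, n = 3 each). Under 1 without a neighbour the values were 0.630 ± 0.133 and 0.826 ± 0.128. From 1 to 2 with a neighbour they were 0.145 ± 0.126 and 0.253 ± 0.0881. Both pairs overlap within 1 SD, but the sets share libraries and the wide regions were lower in each replicate in both. In replicates 1, 2 and 3 the first pair had 0.564, 0.544 and 0.784 against 0.726, 0.781 and 0.971. The second had 0.208, 0 and 0.226 against 0.312, 0.152 and 0.294. In the remaining matched classes the wide regions were lower without such overlap. Across the wide regions mean signal and footprints per 100 bp had a Spearman correlation of 0.65 over 810 regions, as a description of points that share libraries.

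Neighbours separated the wide regions further. Wide regions with another common region within 1 kb had 0.422 ± 0.0974 footprints per 100 bp, and those without one had 1.01 ± 0.0851 (SD, n = 3 each). At a mean signal from 1 to 2 the values were 0.145 ± 0.126 over 252 regions with a neighbour and 0.851 ± 0.153 over 96 without. All 56 wide regions that had no footprint in any replicate were among the 506 with a neighbour, and 0 were among the 304 without. Over all signals the other common promoter regions had 1.35 ± 0.0907 with and 1.63 ± 0.0601 without a neighbour, a smaller difference. In the signal classes under 4 their difference was not smaller than that of the wide regions. From 1 to 2 they had 0.253 ± 0.0881 with and 1.15 ± 0.132 without a neighbour. At 4 or more they had 1.97 ± 0.0444 in both. They held 558 footprint-free regions among 6306 with a neighbour and 0 among 8270 without. At a mean signal of 4 or more the footprint density was 1.52 ± 0.0319 and 1.64 ± 0.0884 in wide regions with and without a neighbour. GC share was 66.1% and 67.0% in wide regions with and without a neighbour, and the median share of 32-base words found once in the genome was 100% in both. Position differed: 44.8% of bases with and 29.6% without a neighbour were in introns, and 14.4% and 24.9% outside coding genes, and the part of position in the split was not tested. How the footprints were called relative to nearby peaks is not given in the sources used here, and its part in this split was not tested.

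**Figure D3:**
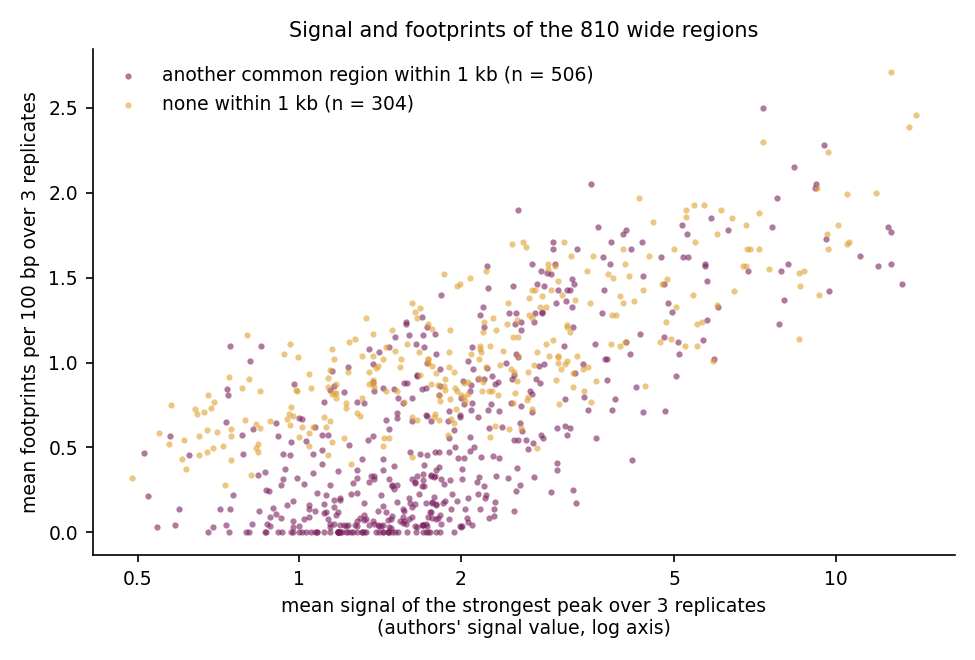
Mean footprints per 100 bp against mean signal (log axis), both over 3 replicates, for each of the 810 wide regions, with 506 that have another common region within 1 kb and 304 that have none. At a signal from 1 to 2 the points of regions with a neighbour lie low, with replicate medians that average 0.145, and those without one lie higher, with 0.851.

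Named regions show both ends of that range. Oxsr1 had 17, 21 and 19 footprints in 700 bp in replicates 1, 2 and 3, or 2.71 ± 0.286 per 100 bp (SD, n = 3), the most of the wide regions. Alkbh5, an RNA demethylase, followed with 23, 25 and 21 in 920 bp. Gsk3b, a kinase of the WNT pathway, had 17, 19 and 19 in 820 bp, and Zfp335, Tbc1d17, Zfp91, Phf3, Nbr1, Tbl2 and Abtb1 completed the 10 highest, from 2.05 to 2.46 per 100 bp. In contrast Btg1, an inhibitor of cell division, had 0 footprints in all 3 replicates over 1000 bp that were covered for 900, 620 and 880 bp. The region shared by Cbx3, a heterochromatin protein, and Hnrnpa2b1, an RNA-binding protein, likewise had 0 in 840 bp in all 3.

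Covered width kept its order between replicates less well in these regions than signal or footprints per 100 bp did. The rule selects on the width of the merge, which is larger where replicates cover different bases. The counts and shares of agreement below therefore describe regions chosen by that width and do not measure repeatability apart from it. Bases covered by a replicate's own peaks reached 700 bp in all 3 replicates in 126 wide regions, in 2 of them in 220, in 1 in 308 and in none in 156. Single peaks of 700 bp or more stood in all 3 replicates in 20 and in none in 352, so that in 43.5% of the wide regions the width came only from joining peaks. Within a replicate a wide region held a median of 2 peaks and an other common promoter region 1. The peak lists also overlap within themselves: nested peaks were 11.9%, 8.47% and 11.8% of the peaks in wide regions and 1.03%, 0.757% and 1.05% in the others, in replicates 1, 2 and 3, and nested bases were counted once.

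Of the merged width the 3 replicates covered a median of 81.5%, 72.4% and 84.5% in wide regions and 92.3%, 85.7% and 91.7% in the other common promoter regions. Bases with a peak in all 3 made up a median of 43.6% of the merge in wide regions and 72.7% in the others. In 83 wide regions that shared core was itself 700 bp or longer, and in 10 there was no base with a peak in all 3. Spearman correlations of covered width between replicates were 0.14, 0.26 and 0.28 over 810 wide regions and 0.46, 0.56 and 0.55 over 14576 others. The limit on width narrows the range within each set, which bears on these correlations too. The choice by merged width also bears on the lower shares in common, and its part was not tested.

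The deposited false discovery rate of the cut density was near its ceiling in most regions. Its share below 0.001 had medians of 97.1%, 100% and 100% of the merge in replicates 1, 2 and 3 in wide regions and 100% in each in the others. It varied where it was lower, as at Ctbp2, a corepressor gene, with 31.6%, 18.9% and 99.9%. Bases with a rate below 0.001 in all 3 replicates made up a median of 92.4% of the merge in wide regions and 100% in the others. They covered 90% or more of 438 wide regions (54.1%), against 77.1% of the others. The whole merge had a rate below 0.05 in all 3 in 510 wide regions (63.0%) and in 87.1% of the others. The ceiling limits what these shares say of agreement.

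**Figure D4:**
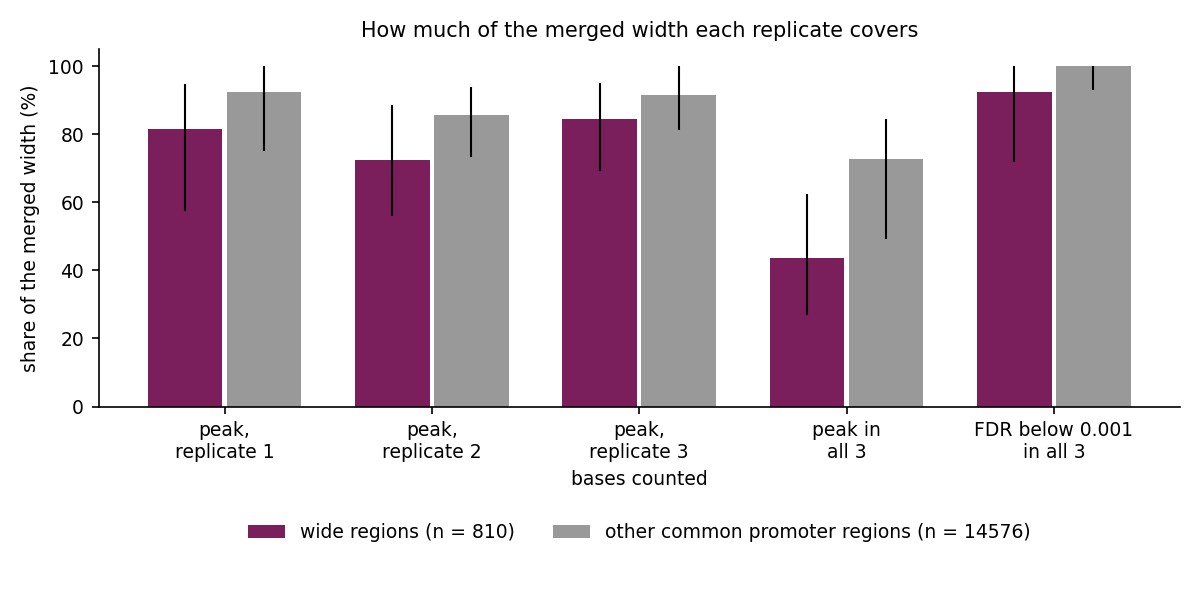
Median share of the merged width that was under a peak in each replicate, under a peak in all 3, and below a false discovery rate of 0.001 in all 3, for 810 wide regions and 14576 other common promoter regions; bars start at 0 and the lines span the quartiles over regions. The share with a peak in all 3 is 43.6% in wide and 72.7% in the others, while the share below the rate is 92.4% and 100%.

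The widest regions differed among themselves in how they were built. Anp32a, which encodes a nuclear inhibitor of histone acetylation, had the widest, chr9:62341801-62344520, with 2720 bp of which 476 bp were exonic and 2244 bp intronic. Replicates 1, 2 and 3 covered 1574, 2020 and 2406 bp of it, with signals of 2.57, 1.64 and 2.06, and only 970 bp (35.7%) were common to all 3. Fbxo11, the substrate receptor of a ubiquitin ligase, was built otherwise: of 1780 bp at chr17:88064021-88065800 the replicates covered 1720, 1700 and 1680 bp and shared 1600 bp (89.9%). It had 3, 1 and 4 footprints there, and its signals were 1.93, 1.33 and 1.60, while a region of 560 bp lying 120 bp upstream had a mean of 5.07. Fbxo11 is thus a long, even and weak opening beside a stronger one.

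Rev3l, the catalytic subunit of translesion polymerase zeta, had the same 1780 bp at chr10:39731401-39733180 with signals of 4.21, 5.61 and 4.99. All 12 starts near it lay inside the region, it held 19, 22 and 20 footprints, and 1180 bp (66.3%) were common to all 3. No other common region lay within 1 kb of it. Sfmbt1, a relative of Polycomb proteins, also stood alone, with 1880 bp, signals of 2.37, 2.02 and 2.31 and 18, 18 and 19 footprints. Ppp2r3d, a phosphatase subunit, had 25, 27 and 27 footprints in 1740 bp. The region of Tlnrd1, a talin-like protein, and Mesd, a chaperone of LRP receptors, had 23, 18 and 18 in 1760 bp. As means over replicates these 4 had from 0.975 to 1.51 footprints per 100 bp. The median of such means was 0.763 in the wide and 1.60 in the other common promoter regions. Anp32a had 26, 17 and 28 footprints, or 0.870 per 100 bp.

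In the remaining wide regions of the first 10 coverage was uneven over the replicates. At Ctbp2 replicates 1, 2 and 3 covered 455, 280 and 1749 bp of 1749 bp. Ptch1, the Hedgehog receptor, was covered for 584, 1860 and 1756 bp of 1996 bp, and Rreb1, a zinc-finger factor downstream of Ras, for 878, 999 and 1734 bp of 1784 bp. Mid1, a ubiquitin ligase gene that spans the pseudoautosomal boundary in mice, was covered for 651, 2260 and 624 bp of 2260 bp. Only 10.5% of the 32-base words in the Mid1 region occur once in the genome, so reads there may come from other copies. In 10 wide regions (1.23%) that share was under 60%, as in 1.23% of the other common promoter regions.

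**Figure D5:**
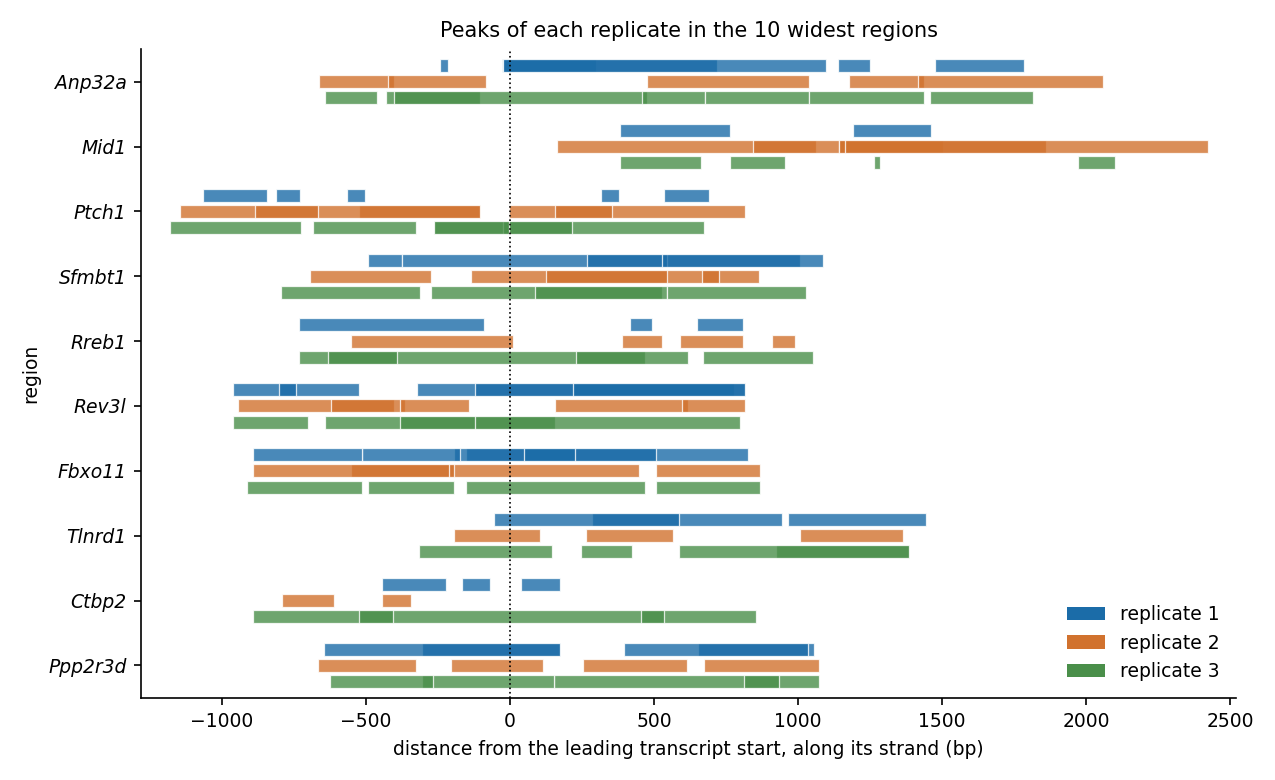
Peaks of each replicate in the 10 widest regions, by distance in bp from the leading transcript start along its strand; darker stretches are bases under overlapping peaks of 1 replicate. Fbxo11 is covered almost end to end in all 3 replicates, whereas Ctbp2 has 1749 bp covered in replicate 3 and 455 and 280 bp in replicates 1 and 2.

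Agreement was best where peaks tiled a region in every replicate. Hdlbp had 97.1% of its 700 bp under a peak in all 3, and Hist1h1c, which encodes a linker histone, 95.2% of 840 bp. Coq10a, a coenzyme Q binding protein, had 95.0% of 800 bp and Cmpk1, a nucleotide kinase, 94.7% of 760 bp. The predicted gene Gm21887 had 96.0% of 729 bp, but 0% of its 32-base words occur once in the genome. At the low end the regions of Osbpl6, Plcg1, Ankrd13c, Lrp6 and Pagr1b had no base common to all 3. At Lrp6, a WNT coreceptor, the replicates covered 101, 977 and 185 bp of 1061 bp.

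Lists of genes differed in how many members had a wide region, read against 7.57% of all coding genes with a common promoter region. Chromatin regulators had 10 of 27 (37.0%), namely Kmt2a, Kdm2a, Kdm2b, Kdm5b, Dnmt3b, Arid1a, Arid1b, Chd4, Ep300 and Nsd1. Replication-dependent histone genes had 5 of 15 (33.3%), cell cycle regulators 8 of 28 (28.6%), heme synthesis and transport genes 3 of 13 (23.1%) and erythroid transcription factors 4 of 19 (21.1%). Immediate early and stress-induced genes had 4 of 29 (13.8%) and RNA-binding and splicing regulators 2 of 25 (8.0%). No wide region lay at any of 18 ribosomal protein genes, 15 replication licensing genes, 23 erythroid membrane genes, 14 heat shock genes, 4 globin genes and 4 homeobox genes that had a common promoter region. The median width of the widest region per gene was 580 bp over the chromatin regulators, 260 bp over the ribosomal protein genes and 340 bp over all coding genes. These lists were written with results of these libraries known, and no test was made on them.

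Most of these listed genes had a stronger common promoter region than the wide one, as was usual for wide regions at genes with more than 1 common promoter region. Of 37 listed genes with a wide region, 29 had their strongest common promoter region elsewhere, and 4 had only 1 such region. Over all 528 wide regions whose leading gene had more than 1, the wide one was the strongest in 118 (22.3%). In all 29 the wide region had fewer footprints per 100 bp than the strongest. Footprints per 100 bp rise with signal across regions, with Spearman correlations of 0.65 in the wide and 0.74 in the others. In the chromatin regulators, Arid1a, a subunit of the BAF remodelling complex, had a wide region of 1220 bp with a mean signal of 1.56 ± 0.418 and its strongest region of 240 bp with 12.2 ± 2.56. Kmt2a, a histone H3 methyltransferase, had 845 bp with 0.865 ± 0.213 and 260 bp with 12.0 ± 2.26. In both genes the narrow region was the strong one. Ep300, a histone acetyltransferase, had 1040 bp with 3.75 ± 0.0669 and a strongest region of 220 bp with 8.48 ± 1.86 (SD, n = 3 throughout).

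Arid1b, the paralogue of Arid1a, and Nsd1, another methyltransferase, were exceptions. The Arid1b region had signals of 3.26, 2.68 and 2.51 over 1280 bp, 13, 23 and 23 footprints and 93.8% of its width common to all 3. The Nsd1 region had 3.84, 4.06 and 4.32 over 1220 bp, 22, 19 and 24 footprints and 88.5% in common. Each was the strongest common promoter region of its gene, and so were the wide regions of Dnmt3b, a DNA methyltransferase, Cbfa2t3, Fosl2, Hist1h3c, Hist4h4 and Reln. Dnmt3b, Fosl2, Hist4h4 and Reln have only 1 common promoter region, so theirs had to be the strongest. Reln, a secreted protein of stellate cells and neurons, was the 1 marker of another cell type with a wide region, with signals of 1.60, 1.05 and 1.33.

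At each of the 8 cell cycle regulators with a wide region the widest one had from 0.0321 to 0.433 footprints per 100 bp as a mean over replicates, where the median of such means was 0.763 over all 810 wide regions. Wide regions of a mean signal from 1 to 2 with a neighbour had 0.145. Ccnd3, the D-type cyclin of red cell precursors, had 0, 0 and 1 footprints in replicates 1, 2 and 3 over 1040 bp, with signals of 1.85, 1.77 and 1.36. Ccne2, an E-type cyclin, had 0, 0 and 1 over 880 bp. Cdk6, a partner of D-type cyclins, had 8, 3 and 7 over 1387 bp, of which 69.2% were common to all 3. Their strongest regions had mean signals of 8.26 ± 1.06 at Ccnd3, 4.02 ± 0.380 at Ccne2 and 2.83 ± 0.187 at Cdk6 (SD, n = 3), and the one at Cdk6 was wide itself at 1140 bp, with 1.29 footprints per 100 bp. Altogether 23 coding genes had more than 1 wide region, among them Cdk6, Myc and Arid1a.

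Of the heme genes 3, and 4 of the erythroid transcription factors, had wide regions. Tmem14c, a mitochondrial porphyrin transporter, had 1540 bp wholly downstream of its start, covered for 318, 1000 and 1470 bp in replicates 1, 2 and 3. Alad, the enzyme that makes porphobilinogen, had 710 bp within an intron, covered for 424, 686 and 710 bp. Urod, which decarboxylates uroporphyrinogen, shared 1080 bp with Hectd3, covered for 133, 437 and 1080 bp. In these 3 regions coverage was least in replicate 1 and most in replicate 3, which was not so over all wide regions, with medians of 680, 625 and 700 bp. Zbtb7a, known in human cells as a repressor of fetal globin genes, had 780 bp with signals of 3.74, 3.02 and 3.07 and 1, 2 and 1 footprints, while its strongest region of 320 bp had a mean of 17.9 ± 6.44 (SD, n = 3). Sox6, another globin repressor, had 1.4, 0.761 and 1.01 over 860 bp.

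The wide regions were rich in GC and CpG. The median GC share was 66.3% in the wide and 64.6% in the other common promoter regions, and the median CpG ratio, observed over expected, was 0.810 and 0.796. In windows of equal length, 500 bp centred on the region, the GC shares lay further apart, at 67.7% and 62.6%. A CpG ratio under 0.6 was found in 14.1% of the wide and 22.0% of the other common promoter regions. The 5 lowest ratios belonged to Tspan32, a tetraspanin, with 0.0996, the predicted gene Gm35082 with 0.114, Sppl2b, an intramembrane protease, with 0.117, Fgd6 with 0.149 and Mapk8ip3 with 0.158. Alad with 0.255 and Tmem14c with 0.285 were low as well. At Tspan32, Gm35082 and Sppl2b replicate 3 covered the most, with 1320 of 1320 bp, 1150 of 1181 bp and 985 of 985 bp, and replicate 1 the least, with 289, 160 and 512 bp. The other regions went otherwise: replicates 1, 2 and 3 covered 700, 280 and 300 bp at Mapk8ip3 and 79, 671 and 278 bp at Fgd6.

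Motifs were searched on both strands in 700-bp windows centred on each region, so that both sets had windows of the same length. The other common promoter regions had a median width of 300 bp, so much of their windows lay outside the region. GC in 500-bp windows was 67.7% in the wide and 62.6% in the other common promoter regions. The part of either in the motif shares was not tested. Of 12 motifs 8 had a lower share in the wide regions. CCAAT was in 40.1% of the wide and 54.2% of the other common promoter windows, the ETS motif CCGGAAG in 16.2% and 23.7%, the NRF1 motif CGCATGCG in 2.10% and 4.57% and the GATA motif AGATAA in 9.01% and 15.3%. The YY1 motif AAGATGGCG, TGACGTCA, the E-box CACGTG and the E2F motif TTTCGCGC were lower too, the last at 0.988% and 1.04%. GGGCGG went the other way, with 85.9% and 79.5%, as did the KLF motif CACCC, with 92.6% and 90.3%, and, by small margins, the AP-1 motif ATGACTCA and the NF-E2 motif GCTGAGTCA, which can overlap it. In windows centred on the leading start, chosen after seeing the data, the AP-1 share was 0.864% in the wide and 0.981% in the other common promoter regions and the E2F share 1.36% and 1.14%, so these directions depend on the window. Where a motif had to touch bases under a footprint in all 3 replicates, the whole region was searched rather than a 700-bp window. All 12 motifs then had a lower share in the wide regions, with GGGCGG in 23.0% of the wide and 37.6% of the other common promoter regions. No such base existed in 44.0% of the wide and 21.9% of the other common promoter regions, which bears on these shares. A match is a run of letters and does not show that a protein was bound.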

How the data were processed

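DNase-seq files of 3 biological replicates of 1 group were used. The deposited notes say that each sample's files come from its own filtered alignments (mm10), with no pooling. Aligner and callers: not given in the sources used here. Peak lists that the authors deposited carry a signal with no definition in these sources; all low values were whole multiples of 1 step per replicate (tolerance 0.05 steps), so it is read as a cut density scaled to depth. The deposited footprints carry 1 FDR, a q-value of 0.01, throughout. The deposited cut-rate files list stretches with an FDR below 0.05, together with that FDR.

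The members and all lists were chosen with earlier results of these data known, from peak presence, width and position, so values are descriptions with no test. From the files were computed the merge (1 bp or more), the bases covered per replicate, footprints whose centre lay inside the region, and the bases with a peak in all 3. Annotation was GENCODE M21, and bases were read from the GRCm38 assembly of RefSeq. Regions take the name of the coding gene whose start is nearest the middle. Values are medians over regions, then mean ± SD over replicates. The merge was tested on simulated intervals. Named are the 10 widest, strongest and richest in footprints, the 5 most and least shared, the 3 on each side of the width limit, the 5 lowest in CpG ratio and in signal, and the 3 widest members per list; further list genes (Kmt2a, Ep300, Dnmt3b, Hist1h3c) were chosen after their values were seen. Python 3.11.15, numpy 2.4.6, pandas 2.3.3, numba 0.67.0 and matplotlib 3.10.9 were used. Alternatives changed the width limit, start window, peak list, merge, footprint rule, sequence window and replicates. The sequence of 1 further window is not reported here.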

Additional observations from a re-analysis of the deposited data

How the results depend on the processing

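The number of wide regions depended on the definition: against 810, it was 1434, 485 and 184 with limits of 600, 800 and 1000 bp, 1370 with the longer peak lists, 353 with the upper 50% of peaks by signal, 83 by the width of the bases with a peak in all 3 and 346 by the median width over replicates. It was 613 to 788 with other start rules, 671 with a 50% overlap and 547 to 592 without 1 replicate. Signal in the wide regions was 1.67 as a width-weighted mean and 1.74 to 1.89 without 1 replicate, against 3.83 and 3.60 to 3.98 in the other common promoter regions. Footprints per 100 bp were 1.06 in the bases with a peak in all 3 and 0.910 in each replicate's own peaks in the wide regions, against 1.77 and 1.67 in the others, where all footprints over all bases gave 1.42; without 1 replicate they were 0.679 to 0.771 and 1.55 to 1.63. The share of the merge with a peak in all 3 was 52.8% in the wide regions and 76.9% in the others with the longer lists, and 56.4% to 66.7% and 78.6% to 85.0% without 1 replicate.

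GC was 67.7% in wide regions and 62.6% in the others in 500-bp windows, with CpG ratios of 0.833 and 0.777. The rest was chosen after seeing the data. Windows centred on the start gave GC of 67.9% and 62% and CpG ratios of 0.845 and 0.782. From the start farthest upstream, wide regions reached 16.5 bp upstream and 900 bp downstream, with the middle downstream in 84.7%, against 133 bp, 146 bp and 51.8% in the others. Bases with a peak in all 3 gave 100 bp, 481 bp and 67.1% against 151 bp, 50.5 bp and 31.7%. Without 1 replicate upstream reach was 191 to 195 bp and 175 to 178 bp, downstream reach 624 to 656 bp and 77.0 to 86.5 bp, and the middle was downstream in 70.0% to 71.1% and 32.8% to 35.6%. Another common region lay within 1 kb of 67.2% of wide regions and 50.4% of the others with the longer lists, and of 63.0% to 67.4% and 44.5% to 49.9% without 1 replicate. The causes of these moves were not tested. No paired comparison of groups was possible because there is 1 group. The wide and the other common promoter regions were read within the same 3 replicates. Unknown depth limits what can be said of weak regions.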
